A study of Mus musculus with 3 samples.

Results

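The genes described here encode the forkhead (Fox) transcription factors, as measured in sorted ureteric duct cells of the mouse embryo. They were taken as every gene symbol of the platform annotation made of Fox, a subfamily letter from a to s, a number and at most 1 further letter. The rule used names only, apart from the choice of the probe set with the highest mean for a gene with several. It found 43 of the 19938 genes with a probe set of a single symbol, in 18 subfamilies from FoxA to FoxS. Only Foxf1 and Foxn3 had more than 1 probe set.

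The data were 3 arrays of a single group, numbered 1 to 3 in the labels. Each held RNA of ureteric duct cells from CD-1 embryos at 10.5 days post coitum (Theiler stage 18, sex not recorded) that carried the Tg(Hoxb7-EGFP)33Cos transgene. In this line the Hoxb7 promoter drives green fluorescent protein in the nephric duct and its derivatives, and the cells were dissected, freed with trypsin and sorted by that fluorescence. The labels give a pool size of 1 duct per sample, call the samples not pooled and name the source as ureteric trunk, and RNA went through 1 round of amplification. No second tissue, stage or genotype was measured, so each gene could be set only against the background of its own array. Nothing in the labels says that the samples came from separate embryos, so p-values here reflect nothing beyond how far these 3 samples spread, and that spread may be technical.

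Forkhead factors bind DNA through a winged-helix fold, the forkhead domain, and the subfamily letter reflects the sequence of that domain. Some, such as the FoxA proteins, open closed chromatin as pioneer factors, and the FoxO proteins leave the nucleus when insulin and growth factor signalling activates the kinase Akt. In the kidney, Foxd1 marks the progenitors of the stroma, Foxc1 and Foxc2 act in mesoderm, where mouse Foxc1 limits how far forward Gdnf is expressed and buds arise, and Foxi1 directs the acid-secreting intercalated cells of the later collecting duct.

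Values are log2 signals as the authors deposited them. As background served 1212 probe sets of olfactory and vomeronasal receptor genes, which sensory neurons use, and the cutoff of each array was their 95th percentile, at 5.69, 5.73 and 5.70 on arrays 1, 2 and 3. A gene is said to pass, or to be above background, where limma's one-sided test of the signal minus the cutoff gave a Benjamini-Hochberg adjusted p under 0.05 over all 21789 single-symbol probe sets. Probe sets differ in affinity, so signals of different genes do not rank their transcripts, and levels below are read only against the cutoff. Fewer cells that express a gene and less RNA per cell cannot be told apart in such samples. Of all genes, 50.8% held exactly the same deposited value on all 3 arrays, written below as a single value. For these no spread can be given, and their p is too small. Their zero spreads also enter the spread that limma shares over genes, so the p of genes that vary is affected too.

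Of the 43 forkhead genes, 24 were above background and 19 were not, a share of 55.8%, near the 56.2% of all genes that passed. Their median signal was 5.81, against 6.04 over all genes. The family thus held no larger share above background than the array as a whole. All genes here include the receptor genes that set the cutoff. Most of these lie below it by construction, which lowers the share of all genes. Fewer members passed at higher cutoffs: 13 did with the cutoff at the 99th percentile of the receptors, or 30.2% against 36.1% of all genes, and 7 passed once the cutoff was set 1 log2 unit higher, or 16.3% against 28.4%. Those 7 were Foxc2, Foxj3, Foxk2, Foxm1, Foxn3, Foxo3 and Foxp1. No test of the family against other genes was made. The subfamily counts below rest on few genes each and are to be read beside the 56.2% of all genes.

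**Figure D1:**
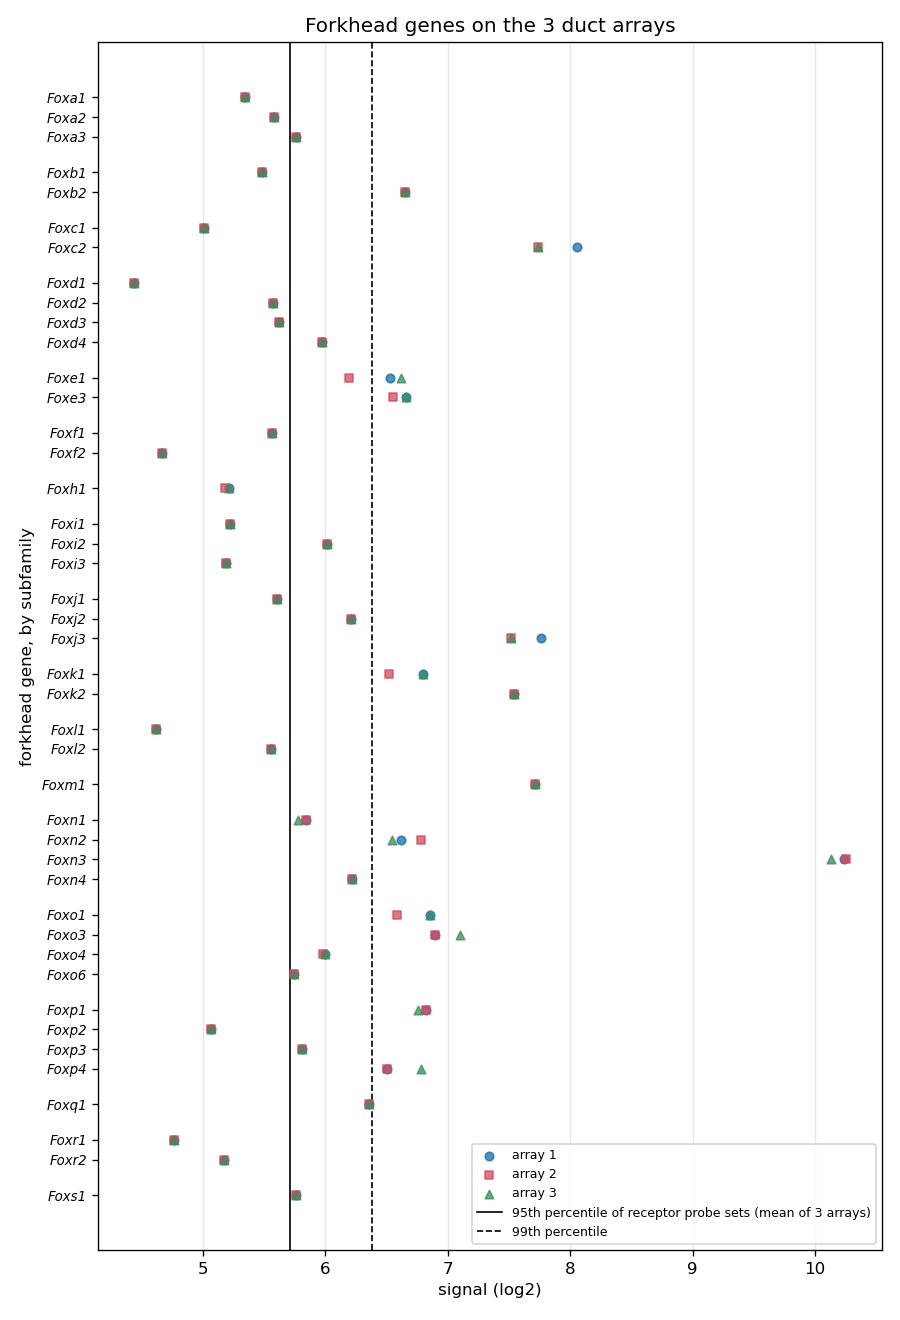
Signal (log2) of each of the 43 forkhead genes on arrays 1, 2 and 3, grouped by subfamily. The solid line is the mean 95th percentile of the receptor probe sets (5.71) and the dashed line their mean 99th percentile (6.38). Foxn3, Foxc2, Foxm1, Foxj3 and Foxk2 lie above 7.5 on all 3 arrays, and Foxd1, Foxl1, Foxf2 and Foxr1 lie below 5.

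The FoxO genes, whose proteins are held in check by Akt, passed in 3 of 4 cases. Foxo1 read 6.85, 6.58 and 6.85 on arrays 1, 2 and 3. It was above the cutoff on every array and lowest on array 2, with a mean of 6.76 ± 0.15 (SD, n = 3), 1.06 log2 units above the mean cutoff (limma, adjusted p = 0.00089). Foxo3 read 6.89, 6.89 and 7.10, highest on array 3, and lay 1.26 units above (limma, adjusted p = 0.00025). Foxo4, an X-linked member, read 5.99, 5.98 and 5.99, which is 0.28 units above the cutoff, and it did not pass at the 99th percentile. Foxo6, a member best known in the brain, had the single value 5.74 and lay above the cutoff of each array by so little that it did not pass (limma, adjusted p = 0.081). That value was also held on all 3 arrays by 70 other single-symbol probe sets.

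The pathway that controls the FoxO proteins was above background in 26 of 28 measured genes, 92.9% against 56.2% of all genes, with a median signal of 7.88 against 6.04. The 14-3-3 genes Ywhae and Ywhaz, whose products hold phosphorylated FoxO in the cytoplasm, read 12.20 ± 0.02 and 11.26 ± 0.26 (SD, n = 3 each). Sgk1, a kinase that phosphorylates FoxO as Akt does, had the single value 5.66 and did not pass. Named after their values were seen, the insulin receptor gene Insr read 9.89 ± 0.30 (SD, n = 3) and Akt1 the single value 6.86, and both passed. Known FoxO target genes passed in 12 of 19 cases, 63.2%, against 56.2% of all genes. The cell cycle inhibitor gene Cdkn1b read 8.67 ± 0.27 and the catalase gene Cat 8.45 ± 0.06 (SD, n = 3 each). The gluconeogenic enzyme gene G6pc read 4.61 ± 0.11 (SD, n = 3) and did not pass. Like every list here, both were made from background knowledge but with earlier results of these data known. Their shares are therefore descriptions, and passing shows only that a transcript was detected.

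Foxm1, the forkhead factor that drives genes of the G2 phase and mitosis, had the single value 7.72 on the 3 arrays. This lay 2.01 log2 units above the mean cutoff (limma, adjusted p = 4.0e-06), and no other single-symbol probe set held it. Foxm1 also passed with the higher cutoff, and where probe sets with a single value were given the median spread of the probe sets that varied, called the borrowed spread below. Of its target genes and cofactors, 17 of 18 measured passed, or 94.4% against 56.2% of all genes, with a median of 8.59 against 6.04 over all genes. Cks1b, a subunit of the cyclin-dependent kinases, read 11.94 ± 0.01 and the mitotic cyclin gene Ccnb2 9.86 ± 0.14 (SD, n = 3 each). Lin9, a subunit of the complex with which Foxm1 acts on mitotic promoters, read 5.68, 6.45 and 5.68, so that it was above the cutoff only on array 2, and it did not pass.

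The FoxN genes all passed. Foxn3, a repressor linked to the response to DNA damage, read 10.24, 10.26 and 10.13, a mean of 10.21 ± 0.07 (SD, n = 3) that lay 4.50 log2 units above the mean cutoff. The 3 arrays were close together for it and far above the cutoff. Its other probe set read 6.66, 5.69 and 5.66, high only on array 1, and did not pass (limma, adjusted p = 0.297), so the level of this gene depends on the probe set. Foxn2 read 6.62, 6.78 and 6.55, with array 2 highest, and passed at the 99th percentile as well. Foxn4, known from retinal neurons, had the single value 6.22, which 11 other probe sets shared. Foxn1, the factor of the thymic epithelium, read 5.84, 5.84 and 5.78, only 0.11 units above the mean cutoff. Its call was lost when any of the 3 arrays was left out, and also with the borrowed spread (limma, adjusted p = 0.10).

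FoxJ and FoxK genes passed in 4 of 5 cases. Foxj3 read 7.76, 7.51 and 7.51, above the cutoff by 1.89 log2 units on average and highest on array 1 (limma, adjusted p = 0.00014). Foxj2 had the single value 6.21. Foxj1, the master factor of motile cilia, had the single value 5.61 and did not pass. In the list of its programme, 4 of 12 genes passed, or 33.3% against 56.2% of all genes, with a median of 5.39. The cilium regulator gene Rfx3 and Ccdc39, which is needed to assemble motile axonemes, had the single values 6.96 and 6.51 and passed, and Gmnc, which acts early in the multiciliated programme, had the single value 4.00 and did not. Foxk2 had the single value 7.54, and Foxk1 read 6.80, 6.52 and 6.80, with array 2 again the lowest. Both FoxK proteins repress autophagy genes together with Sin3 in mouse cells, and both genes also passed at the 99th percentile.

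Among the FoxP genes, which encode repressors that pair through a leucine zipper, 3 of 4 passed. Foxp1 read 6.82, 6.82 and 6.76, in all 1.09 log2 units above the mean cutoff (limma, adjusted p = 2.7e-05), and array 3 was slightly lower than the others. Foxp4 read 6.50, 6.50 and 6.78, with array 3 the highest. Foxp2, known from the brain and lung, had the single value 5.07 and did not pass, and 93 other probe sets held this value. Foxp3, the factor of regulatory T cells, had the single value 5.81, which 58 other probe sets shared. It passed, but its call was lost without array 1, without array 3, at the 99th percentile, with olfactory receptors alone and with the borrowed spread. In the leukocyte list 1 of 8 genes passed, 12.5% against 56.2% of all genes. Cx3cr1 had the single value 6.54 and passed. Cd68 read 6.31 ± 0.51 (SD, n = 3) and did not pass, and the macrophage gene Adgre1 had the single value 4.09.

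The partner list for FoxH1, FoxK and FoxP proteins was above background in all of its 16 genes, against 56.2% of all genes, with a median of 8.09 against 6.04. Hdac2 and Hdac1, histone deacetylases of the Sin3 and NuRD complexes, read 11.52 ± 0.20 and 10.65 ± 0.02 (SD, n = 3 each), and Sin3b had the single value 6.17. The Smad cofactor gene Foxh1, which acts in Nodal signalling before and during gastrulation, read 5.21, 5.18 and 5.21 and lay below every array's cutoff.

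The FoxC pair divided. Foxc2 read 8.06, 7.73 and 7.73, with array 1 highest and all 3 arrays far above the cutoff, for a mean of 7.84 ± 0.19 (SD, n = 3), 2.13 log2 units above it (limma, adjusted p = 0.0002). Foxc1 had the single value 5.01, at -0.70 units from the mean cutoff. It passed under none of the alternatives, of which only the lower cutoffs, given further below, could have changed its call. Its value was held by 84 other single-symbol probe sets on all 3 arrays. In the nephrogenic mesenchyme list, where both factors are known to act, 6 of 11 genes passed, or 54.5% against 56.2% of all genes. The repellent ligand gene Slit2 read 9.98 ± 0.13, the co-regulator gene Cited1 7.71 ± 0.17 (SD, n = 3 each) and Meox2 the single value 4.47, which did not pass. Whether Slit2 and the other listed transcripts came from mesenchyme or from duct cells was not tested. In the list of paraxial and lateral mesoderm, 6 of 10 passed, 60% against 56.2% of all genes. Tcf15 read 7.21 ± 0.26 and Pax1 6.52 ± 0.10 (SD, n = 3 each), and Tbx18 had the single value 4.55. In the endothelial list 13 of 14 passed, 92.9% against 56.2% of all genes. Foxc2 is also known in endothelial cells, and the part of any of these cell types in its signal was not tested.

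Foxd1, the stromal progenitor factor, had the single value 4.44, at -1.27 log2 units from the mean cutoff. It passed under none of the alternatives, and again only the lower cutoffs could have changed its call. Of the 12 stroma genes 4 passed, 33.3% against 56.2% of all genes, with a median of 5.73. The collagen genes Col1a1 and Col1a2 had the single values 6.75 and 6.61 and passed, and the proteoglycan gene Lum the single value 3.23, which did not. The other FoxD genes lay near the cutoff. Foxd2 and Foxd3, the second a factor of the neural crest, had the single values 5.57 and 5.62 and did not pass, and Foxd4 read 5.97, 5.98 and 5.98 and passed, though not at the 99th percentile. In the neural and neural crest list 3 of 9 genes passed, 33.3% against 56.2% of all genes. The neuregulin receptor gene Erbb3 and Sox1, known from the neural plate, had the single values 6.96 and 6.95, and Elavl4 the single value 4.13, which did not pass.

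The FoxI genes passed in 1 of 3 cases. Foxi1 had the single value 5.23, at -0.48 log2 units from the mean cutoff, and Foxi3, known from ectodermal placodes, the single value 5.19. Foxi2 had the single value 6.01 and passed, but not at the 99th percentile. The list of intercalated cell genes, many of them targets of Foxi1, passed in 6 of 17 cases, 35.3% against 56.2% of all genes, with a median of 5.39. Tfcp2l1, a factor that acts with Foxi1 in the mouse collecting duct, read 7.56, 7.30 and 6.82 and passed. The receptor gene Kit also passed, at the single value 6.93, and the proton pump subunit gene Atp6v0d2 lay at the single value 3.03. Named after its value was seen, Atp6v1b1, a pump subunit gene under Foxi1 control, read 5.09, 5.09 and 5.11 and did not pass.

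**Figure D2:**
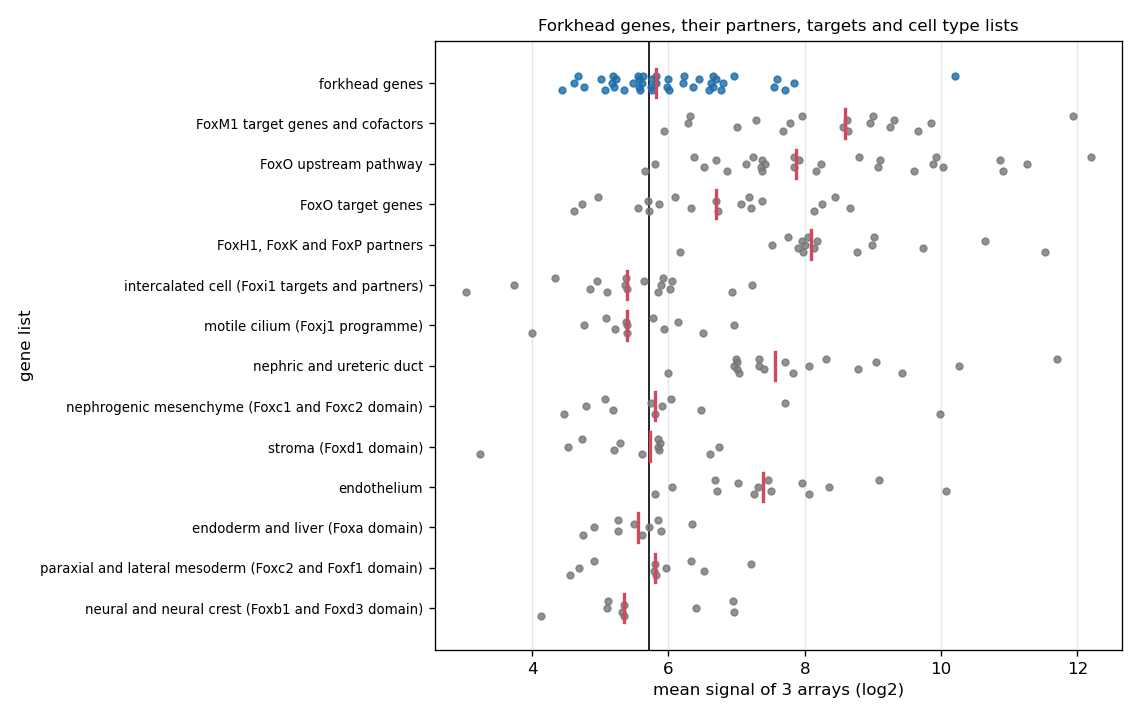
Mean signal over 3 arrays (log2) of the forkhead genes (blue) and of the genes of 13 lists (grey). Each point is a gene, the red bar is the median and the vertical line the mean 95th percentile cutoff (5.71). The medians of the FoxM1 target, FoxO upstream and partner lists lie between 7.88 and 8.59, and those of the intercalated cell and motile cilium lists at 5.39, below the line.

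FoxA genes, pioneer factors of endoderm and liver, had the single values 5.35 for Foxa1, 5.58 for Foxa2 and 5.76 for Foxa3. Foxa3 passed, by 0.05 log2 units (limma, adjusted p = 0.031), and lost its call without array 1, without array 3, at the 99th percentile, with olfactory receptors alone and with the borrowed spread. In the endoderm and liver list 3 of 10 passed, 30% against 56.2% of all genes. The apolipoprotein gene Apoa1 had the single value 6.34 and Shh read 5.88 ± 0.08 (SD, n = 3). The albumin gene Alb read 4.74 ± 0.23 (SD, n = 3) and did not pass. Foxb2 had the single value 6.65, held by no other probe set, and passed also at the 99th percentile, while Foxb1, known from the developing hypothalamus, had the single value 5.48 and did not pass. Foxe1, the thyroid factor, read 6.53, 6.20 and 6.62, with array 2 lowest, and Foxe3, the lens factor, read 6.66, 6.55 and 6.66. Both passed, and Foxe3 also at the 99th percentile.

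Foxf1 and Foxf2, factors of the mesenchyme around the gut, did not pass. Foxf1 had the single values 5.57 and 4.91 from its probe sets and Foxf2 the single value 4.67. Foxl1, of gut mesenchyme, and Foxl2, of ovarian granulosa cells, had the single values 4.62 and 5.55 and did not pass, nor did Foxr1 and Foxr2, with the single values 4.76 and 5.17. Foxq1, whose loss gives mice a satin coat, had the single value 6.36 and passed. Foxs1 had the single value 5.76, passed by 0.05 log2 units (limma, adjusted p = 0.035) and lost its call under those same 5 alternatives. Neither Foxa3 nor Foxs1 passed with the cutoff set 1 unit higher.

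In the annotation of GRCm38.p6, used here only for gene order, Foxq1, Foxf2 and Foxc1 follow each other on chromosome 13 with no other protein-coding gene between, and Foxq1 passed while Foxf2 and Foxc1 did not. On chromosome 8, Foxf1, Foxc2 and Foxl1 form a row with only Mthfsd between the members, and only Foxc2 passed. On chromosome 4, Foxd2 and Foxe3 are neighbours, and only Foxe3 passed.

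Promoter sequences were available from RefSeq (GRCm38.p6) for 28 of the 43 genes, in 33 windows of 250 bases before a transcription start. The GC box GGGCGG, searched on both strands, stood in 23 of the 33 windows (69.7%), against 32.7% of all 32851 windows available. The latter were not limited to the genes measured here. Among members it was found in 12 of 19 windows of genes above background and in 11 of 14 of genes that were not. The forkhead core TGTTTAC, on both strands, stood in 1 of the 33 windows, that of Foxa1, against 3.17% of all windows. The letters of these motifs allow them to share an end base. The median number of CpG dinucleotides per window was 16 in the members and 6 over all 32851 windows. It was 12 in the 19 windows of members above background and 18 in the 14 of members that were not. The windows of Foxo1 and Foxi1 are shown because the first gene passed and the second did not; capitals mark GGGCGG or its reverse complement. They lie at chr3:52268087-52268336 (plus strand) and chr11:34208090-34208339 (minus strand), with 20 and 4 CpG dinucleotides and 2 and 1 GC boxes. In CpG count this pair differs the other way from the medians of members above background and not above it. A match is a description of the letters only.
Foxo1: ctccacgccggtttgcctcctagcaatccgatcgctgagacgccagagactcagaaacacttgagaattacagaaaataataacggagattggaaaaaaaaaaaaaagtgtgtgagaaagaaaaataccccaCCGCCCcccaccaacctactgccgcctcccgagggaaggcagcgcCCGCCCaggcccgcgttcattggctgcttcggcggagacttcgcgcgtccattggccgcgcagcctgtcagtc
Foxi1: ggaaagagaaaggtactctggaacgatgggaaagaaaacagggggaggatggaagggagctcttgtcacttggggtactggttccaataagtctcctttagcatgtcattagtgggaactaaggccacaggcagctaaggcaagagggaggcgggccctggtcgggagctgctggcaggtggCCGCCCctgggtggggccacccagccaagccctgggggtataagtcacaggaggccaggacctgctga

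Across the arrays the forkhead genes varied little. Of the 43 members, 28 had a single value (65.1%), against 50.8% of all genes, 12 more had 2 distinct values and 3 had 3. Among members not above background 18 of 19 held a single value, or 94.7% against 63.8% of all genes that did not pass, and among members above background 41.7% did, against 40.6% of all genes that passed. The single value was shared with at least 1 other single-symbol probe set in 20 of the 28, and it was not tested whether a shared value is specific to its gene. No member had a range over 1 log2 unit, which 3.15% of all genes exceeded. The largest range was the 0.42 of Foxe1, and 12.8% of all genes had a larger one. In the 15 members that varied, the median range was 0.21, against 0.20 for all genes that varied.

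Array 2 alone was lowest in 6 of the 15 members that varied (40.0%), namely Foxe1, Foxk1, Foxo1, Foxe3, Foxh1 and Foxo4, and in 21.1% of all genes that varied. The difference between array 2 and the mean of the other arrays was -0.37 log2 units for Foxe1, -0.28 for Foxk1, -0.27 for Foxo1 and -0.11 for Foxe3. On the same array the endothelial list was low, and 12 of its 14 genes were lowest there. Its summed log2 signal was 99.8, against 107.9 on array 1 and 108.2 on array 3, and its mean over genes differed from the other arrays by -0.59. Single genes outside this list were also low on array 2, such as Actb at -0.80 and Mybl2, named after its value was seen, at -0.99. The means of their lists, FoxM1 targets and broadly used genes, differed by -0.03 and -0.08. Emcn read 10.07 ± 0.69 and Cdh5 9.10 ± 0.58, and Sox17, at 5.80 ± 0.05 (SD, n = 3 each), did not pass (limma, adjusted p = 0.062). Foxo1 is known to act in endothelial cells. The part of endothelial cells in its signal was not tested. Foxe1, Foxk1, Foxo1, Foxe3 and Foxo4 were also above background without array 2.

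Array 1 alone was highest for Foxc2, by 0.32 log2 units over the mean of the others, and for Foxj3, by 0.25. These were 2 of the 15 members that varied, and array 1 alone was highest in 22.1% of all genes that varied. On array 1 the red cell list had a summed log2 signal of 46.3, against 36.7 on array 2 and 36.7 on array 3. In this list 1 of 7 measured genes passed, 14.3% against 56.2% of all genes. It was Gata1, named after its value was seen, at 6.06 ± 0.05 (SD, n = 3). Hbb-y read 10.02 there, against 5.31 and 5.45, and Hba-x 8.89, against 5.97 and 5.84, and Rhag had the single value 3.97. The part of red cells in the values of Foxc2 and Foxj3 was not tested, and both genes also passed without array 1. Array 3 alone was highest for Foxe1, Foxo3 and Foxp4 and lowest for Foxn1, Foxn2, Foxn3 and Foxp1. These were 3 and 4 of the 15 members that varied. Of the 9809 genes that varied in all, 2603 were highest and 2712 lowest on array 3 alone.

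**Figure D3:**
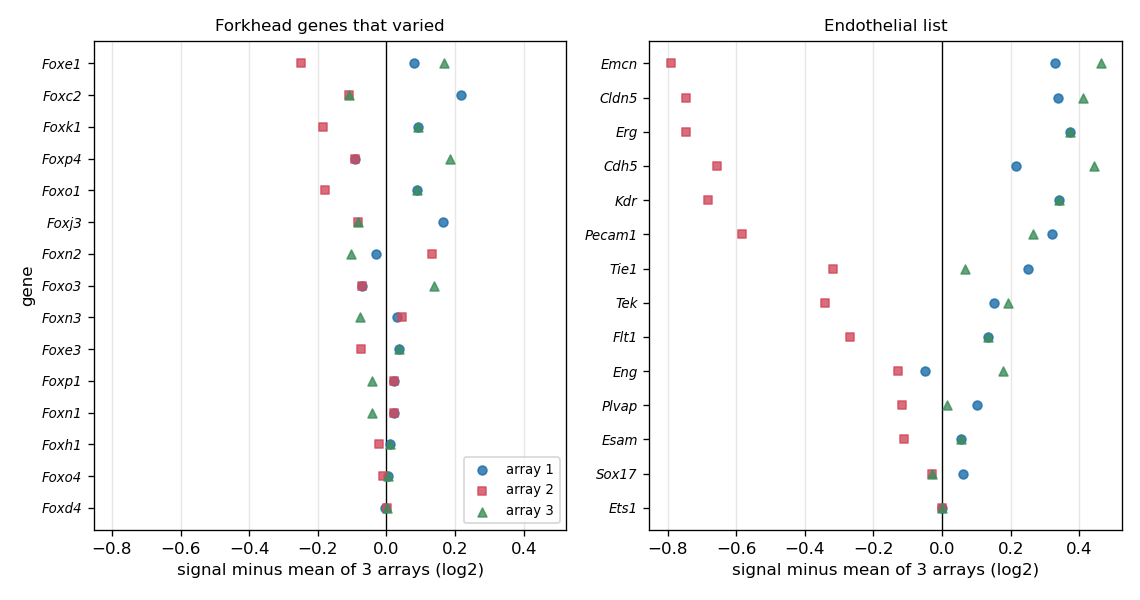
Signal minus the gene's mean over the 3 arrays (log2) for the 15 forkhead genes that varied (left) and the 14 endothelial genes (right), in order of range. Array 2 (red squares) lies left of 0 for 12 of the endothelial genes as the lowest array, and for 6 of the forkhead genes, whose spread is smaller.

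All 18 genes of a nephric and ureteric duct list passed, against 56.2% of all genes, with a median of 7.56. The endothelial list, with 13 of 14 genes passing, had a median of 7.39. The cells were sorted by fluorescence from the Hoxb7 promoter, and the list was chosen with earlier results of these data known. These counts therefore describe the samples and are no independent check of duct identity. Calb1, which encodes the calcium buffer calbindin, read 11.71 ± 0.03 (SD, n = 3), Mecom had the single value 10.26, and Hoxb7, whose promoter drives the sorting transgene, the single value 7.32. Wnt11, the ligand of the ureteric tip, was lowest at 5.99 ± 0.05 (SD, n = 3). All 7 measured broadly used genes passed, from Tbp at 7.54 ± 0.19 to Actb at 12.73 ± 0.46 and Eef1a1 at 13.29 ± 0.11 (SD, n = 3 each).

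The number of members called depended on where the cutoff was set. A distance of under 0.15 log2 units from the mean cutoff was found for 10 members, 5 above and 5 below. The members that passed by least were Foxs1 and Foxa3, each 0.05 units above the mean cutoff. Those that missed by least were Foxo6, 0.04 units above it, and Foxd3, at -0.09 units. At the 90th percentile of the receptors 32 members passed, or 74.4% against 65.4% of all genes, and at the 30th percentile of the whole array 38 did, or 88.4% against 75.3%. The family's share thus lay above that of all genes at these lower cutoffs and below it at the higher ones. Under each of the 11 alternatives tried, Foxc2, Foxj3, Foxk2, Foxm1, Foxo3 and Foxp1 passed, and Foxc1, Foxd1, Foxf2, Foxl1 and Foxr1 did not. Many of these alternatives could not have changed the calls. The genes that never passed had a single value below every array's cutoff, so only the lower cutoffs could have made them pass. Lower cutoffs, centring and the choice of probe set left little room to lose the calls of the genes that passed.

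**Figure D4:**
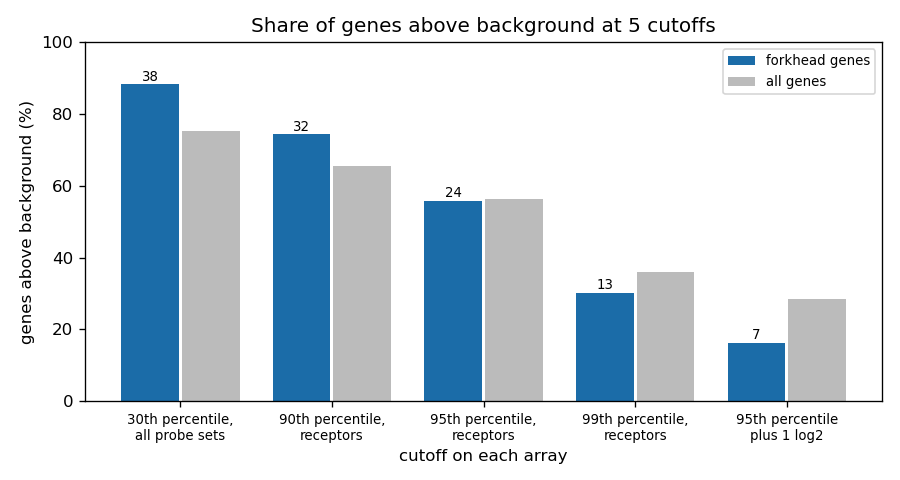
Percentage of the 43 forkhead genes (blue, with the number of genes above each bar) and of all 19938 genes (grey) above background at 5 cutoffs, from the lowest on the left to the highest on the right. The forkhead share runs from 88.4% to 16.3%, and the share of all genes from 75.3% to 28.4%.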

How the data were processed

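RNA of 3 ureteric duct samples was hybridised to mouse Affymetrix arrays, 1 per sample. The values deposited by the authors run from 1.90 to 14.2 and were therefore taken as log2 signals. Per the submitters' processing notes, Affymetrix Expression Console was used. For its algorithm and version, any background correction and the genome build, nothing is given in the sources used here. Of 35557 probe sets, the platform annotation gave a single symbol to 21789, several to 1621 and none to 12147; those with several or none were left out. For a gene with several, the probe set of highest mean stood for it. The differences between signal and array cutoff went into an intercept-only model (limma 3.58.1, R 4.3.3, moderated by empirical Bayes). By construction about 5% of receptor probe sets lie above the cutoff, and 57 did on all 3 arrays; the false rate for other genes is not known. On simulated probe sets the test called 0% at -0.5 log2 units from the cutoff, 64% at 0.25, 84% at 0.5 and 92% at 1. Their spreads were drawn only from probe sets that varied, and none was placed at the cutoff itself. This leaves false calls among genes with a single value or near the cutoff unmeasured. The named genes were every forkhead gene, Hoxb7 and, of each of 16 lists, the top 2 genes and the bottom 1 by mean signal. Insr, Akt1, Atp6v1b1, Mybl2 and Gata1 were added after their values were seen. The members and lists were chosen with earlier results of these data known. Alternatives changed the cutoff, its probe sets, the probe set per gene, the spread of probe sets with a single value (the borrowed spread), the centring and the arrays used. The number of arrays limits the precision.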

Additional observations from a re-analysis of the deposited data

How the results depend on the processing

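The count of forkhead genes above background was 24, and moved to 13 at the 99th percentile of the receptors, 7 for a cutoff set 1 log2 unit higher and 38 at the 30th percentile of the whole array. The count over all genes was 11203, and moved to 7190 at the 99th percentile and 5653 with the higher cutoff. Leaving out an array gave 19 to 23 forkhead genes and 10363 to 11007 of all genes. In the fit without array 3, limma gave all genes a common spread, so its calls ignore the spread of each gene. Centring on array medians leaves the test as it is by construction. The single-gene calls lost numbered 4 with olfactory receptors alone, 4 with the borrowed spread, and 1, Foxn3, with the lowest probe set per gene; no single call was gained under these 3. Foxd4 lost its call without array 3.

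At the 99th percentile the list counts that moved were nephrogenic mesenchyme 2, stroma 2, intercalated cell 2, motile cilium 2, endoderm 0, mesoderm 1 and red cells 0. With the higher cutoff they were nephrogenic mesenchyme 2, stroma 0, endothelium 8, intercalated cell 1, motile cilium 1, endoderm 0, mesoderm 1, leukocyte 0 and red cells 0. At the 90th percentile they were stroma 7, endoderm 6, leukocyte 2 and red cells 2, and at the 30th percentile of the whole array stroma 9, intercalated cell 12, motile cilium 10, endoderm 8, neural 8, leukocyte 3 and red cells 4. With the borrowed spread they were stroma 2 and leukocyte 2. Leaving out an array gave stroma 2 to 6, endoderm 1 to 3, mesoderm 3 to 7, leukocyte 1 to 2 and red cells 1 to 3. The cause of these moves beyond the change of cutoff or spread was not tested. No paired analysis was possible because the series has a single group. Signal over background limits the calls of members near the cutoff.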
